A study of Homo sapiens with 192 samples.

Results

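Collagen-modifying prolyl and lysyl enzymes are here a set of 10 genes, chosen by name from the 58243 genes in the count tables: the prolyl 4-hydroxylase genes P4HA1, P4HA2, P4HA3 and P4HB, the lysyl hydroxylase genes PLOD1, PLOD2 and PLOD3, and the lysyl oxidase genes LOX, LOXL2 and LOXL4. Their mRNA was measured by RNA sequencing in 24 libraries from human colorectal cancer (CRC) cell lines: HT29 and LS513, described as microsatellite stable, and HCT116 and LS174T, described as microsatellite instable. For each of the 4 lines there were 3 libraries of cells in 2D culture and 3 of cells in 3D culture. No drug or genetic change was applied to these libraries. HCT116 was kept in McCoy's medium and the other lines in DMEM, so a difference between HCT116 and another line cannot be told apart from a difference between media. Each line stands for 1 tumour, and the vessel and the duration of the 3D growth for RNA were not given in the sources used here. The labels do not say whether the libraries of a group came from separate cultures, so p-values measure the spread between these libraries.

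Collagen chains are modified while they are folded in the endoplasmic reticulum. Prolyl 4-hydroxylase is a tetramer of alpha subunits, which hold the catalytic site, and beta subunits, which are protein disulfide isomerase, and its product 4-hydroxyproline keeps the collagen triple helix stable at body temperature. Lysyl hydroxylases hydroxylate lysine, which allows sugars to be attached and sets the type of cross-link, and outside the cell the copper-dependent lysyl oxidases turn lysine and hydroxylysine into the aldehydes from which cross-links form. In tumours these enzymes are best known from fibroblasts of the stroma, and P4HA1, P4HA2, PLOD2, LOX, LOXL2 and LOXL4 are known targets of hypoxia-inducible factors.

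Libraries held between 18723942 and 34277421 counts (median 30777613), and a floor of 3 counts was worth between 0.0875 and 0.160 CPM, a unit of read counts scaled to library size. Checked against markers of cell types, all 8 epithelial markers were above the floor in every group. Of 10 fibroblast markers 2 or 3 were above it in all libraries of a group, COL1A2 was at 0 in every group, and their summed level was between 0.871 and 28.9 CPM, highest in HCT116. Endothelial markers summed to at most 3.19 CPM. Some markers moved with 3D: the fibroblast sum was higher without overlap in LS174T (4.81 to 6.61 CPM in 2D and 8.45 to 9.88 CPM in 3D, with ACTA2 higher by log2 0.85, adjusted p = 0.02) and lower in LS513 (2.29 to 2.57 and 1.53 to 1.63 CPM). The endothelial sum was higher without overlap in HT29 (1.03 to 1.81 and 2.49 to 3.19 CPM) and LS513 (0.0317 to 0.0604 and 0.423 to 0.604 CPM). Of the 8 epithelial markers 6 were called higher in 3D in LS513 (13.7% of all genes tested) and 4 in HT29 (21.1%). In HT29 1 was lower (19.6%), and 3 were higher in HCT116 (16.8%) and in LS174T (13.1%). The part of these markers in the levels of the 10 genes was not tested. In such bulk libraries, fewer cells that use a gene and less RNA per cell cannot be told apart.

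Of the 10 genes, 9 entered the test of growth condition and 5 (P4HA1, P4HA2, P4HB, PLOD1 and PLOD3) were above the floor in all 24 libraries. LOX, the founding lysyl oxidase, was not tested: it had 7 counts in all libraries together and at most 2 in any of them. The other genes with libraries at or under the floor were P4HA3, above it in 18 libraries, PLOD2 in 21, LOXL2 in 19 and LOXL4 in 18.

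Promoter windows are shown for P4HA1, P4HA2 and PLOD2, the genes that were higher in 3D in every line, and for LOX, which was hardly counted. They hold the 250 bases before 1 RefSeq start of each gene, the first listed, on GRCh38.p14, 5′ to 3′ on the strand of the gene. Other starts were not searched. Capitals mark ACGTG or GCGTG, the core letters to which hypoxia-inducible factors are known to bind, searched on both strands (CACGT or CACGC when read from the opposite strand).
P4HA1 (chr10:73096867-73097116, minus strand): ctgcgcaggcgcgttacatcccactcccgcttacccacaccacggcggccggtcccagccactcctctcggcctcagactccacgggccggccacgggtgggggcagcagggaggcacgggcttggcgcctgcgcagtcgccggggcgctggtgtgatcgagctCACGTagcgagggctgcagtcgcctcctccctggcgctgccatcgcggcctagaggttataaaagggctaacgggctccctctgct
P4HA2 (chr5:132227092-132227341, minus strand): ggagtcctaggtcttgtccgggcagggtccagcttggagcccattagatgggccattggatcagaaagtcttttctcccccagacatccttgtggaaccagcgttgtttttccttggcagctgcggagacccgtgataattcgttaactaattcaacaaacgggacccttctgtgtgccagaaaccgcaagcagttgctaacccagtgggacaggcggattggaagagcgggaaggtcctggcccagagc
PLOD2 (chr3:146161185-146161434, minus strand): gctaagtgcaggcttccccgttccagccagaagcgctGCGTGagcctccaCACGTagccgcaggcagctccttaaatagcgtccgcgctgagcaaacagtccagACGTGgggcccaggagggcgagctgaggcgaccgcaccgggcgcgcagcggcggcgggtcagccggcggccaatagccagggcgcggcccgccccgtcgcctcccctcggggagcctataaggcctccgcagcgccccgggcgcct
LOX (chr5:122078260-122078509, minus strand): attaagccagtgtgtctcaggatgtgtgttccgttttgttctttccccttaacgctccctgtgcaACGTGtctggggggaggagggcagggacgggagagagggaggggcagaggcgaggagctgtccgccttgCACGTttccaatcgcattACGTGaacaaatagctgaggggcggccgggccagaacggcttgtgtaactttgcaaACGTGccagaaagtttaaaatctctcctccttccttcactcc
P4HA1 held 1 match, 86 bases before the start and on the opposite strand. PLOD2 held 3 matches, P4HA2 held 0 and LOX held 4. A window was listed in RefSeq for 8 of the 10 genes (not for P4HA3 and LOXL2), and 5 of these 8 held a match, beside 43.1% of 27305 promoters of the same length. ACGTG alone was present in 3 of 8 (P4HA1, PLOD2 and LOX) and in 18.7% of all promoters. A match is a description of the letters and not of binding.

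The mRNA of P4HA1, P4HA2 and PLOD2 was higher in 3D in all 4 lines, and that of P4HB and PLOD1 in some of them. P4HA3, PLOD3, LOXL2 and LOXL4 were higher in 1 line each, and LOXL4 was lower in HT29 and LS174T. Calls are at an adjusted p under 0.05 in edgeR's quasi-likelihood test with Benjamini-Hochberg adjustment over the 19387 genes tested. In HT29, 3 of the 9 genes tested were higher (P4HA1, P4HA2 and PLOD2), where 21.1% of all genes were higher, and 1 was lower (LOXL4), where 19.6% were lower. In LS513, 4 were higher (P4HA1, P4HA2, PLOD2 and P4HB), beside 13.7% of all genes. In HCT116, 7 were higher (P4HA1, P4HA2, PLOD1, PLOD2, PLOD3, LOXL2 and LOXL4), beside 16.8%. In LS174T, 6 were higher (P4HA1, P4HA2, P4HA3, P4HB, PLOD1 and PLOD2), beside 13.1%, and LOXL4 was lower, beside 9.15%. In LS513 and HCT116 0 genes of the set were called lower by edgeR or by DESeq2, and 0 were lower at an unadjusted p under 0.05, where 9.90% and 12.3% of all genes were called lower.

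The libraries themselves, without a test, gave a similar picture. All 3D libraries lay above all 2D libraries for 8 genes in HCT116 (the 7 above and P4HB), where 22.8% of all genes did so, for 6 in LS174T (20.9%), for 4 in LS513 (23.0%) and for 3 in HT29 (27.3%). All 3D libraries lay below for 3 genes in HT29 (P4HB, PLOD1 and LOXL4, beside 25.6% of all genes) and for 0 in LS513 (20.0%), HCT116 (17.6%) and LS174T (17.6%).

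Over the 4 lines, 22 of 36 tests of a gene in a line were called, beside 28.9% over all genes tested, and 20 of the 36 were called higher, beside 16.2%. All 9 genes tested were called in at least 1 line, as were 60.9% of all genes. The 3 genes called higher in all 4 lines compare with 3.14% of all genes tested. The median log2 fold change of the 9 genes was 0.79 in both HCT116 and LS174T, 0.30 in HT29 and 0.16 in LS513, and the median over all genes tested was between 0.00 and 0.02 in each line. In HT29 and LS513 this median is the value of P4HA3, a gene near the floor (SE 0.73 and 0.75). Without 1 library the median ran from -0.03 (without HT29 3D replicate 4) to 0.82 (without HT29 2D replicate 2) in HT29, and from 0.10 (without LS513 3D replicate 1) to 0.49 (without LS513 3D replicate 3) in LS513. In HCT116 and LS174T it stayed between 0.71 and 0.88. For the mean effect of the 4 lines, 6 genes (P4HA1, P4HA2, P4HB, PLOD1, PLOD2 and LOXL2) were higher, beside 26.6% of all genes tested. Not all of these were shared by the lines: LOXL2 was called in HCT116 alone (log2 2.85). PLOD1 was called in HCT116 and LS174T only, and P4HB in LS513 and LS174T only.

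**Figure D1:**
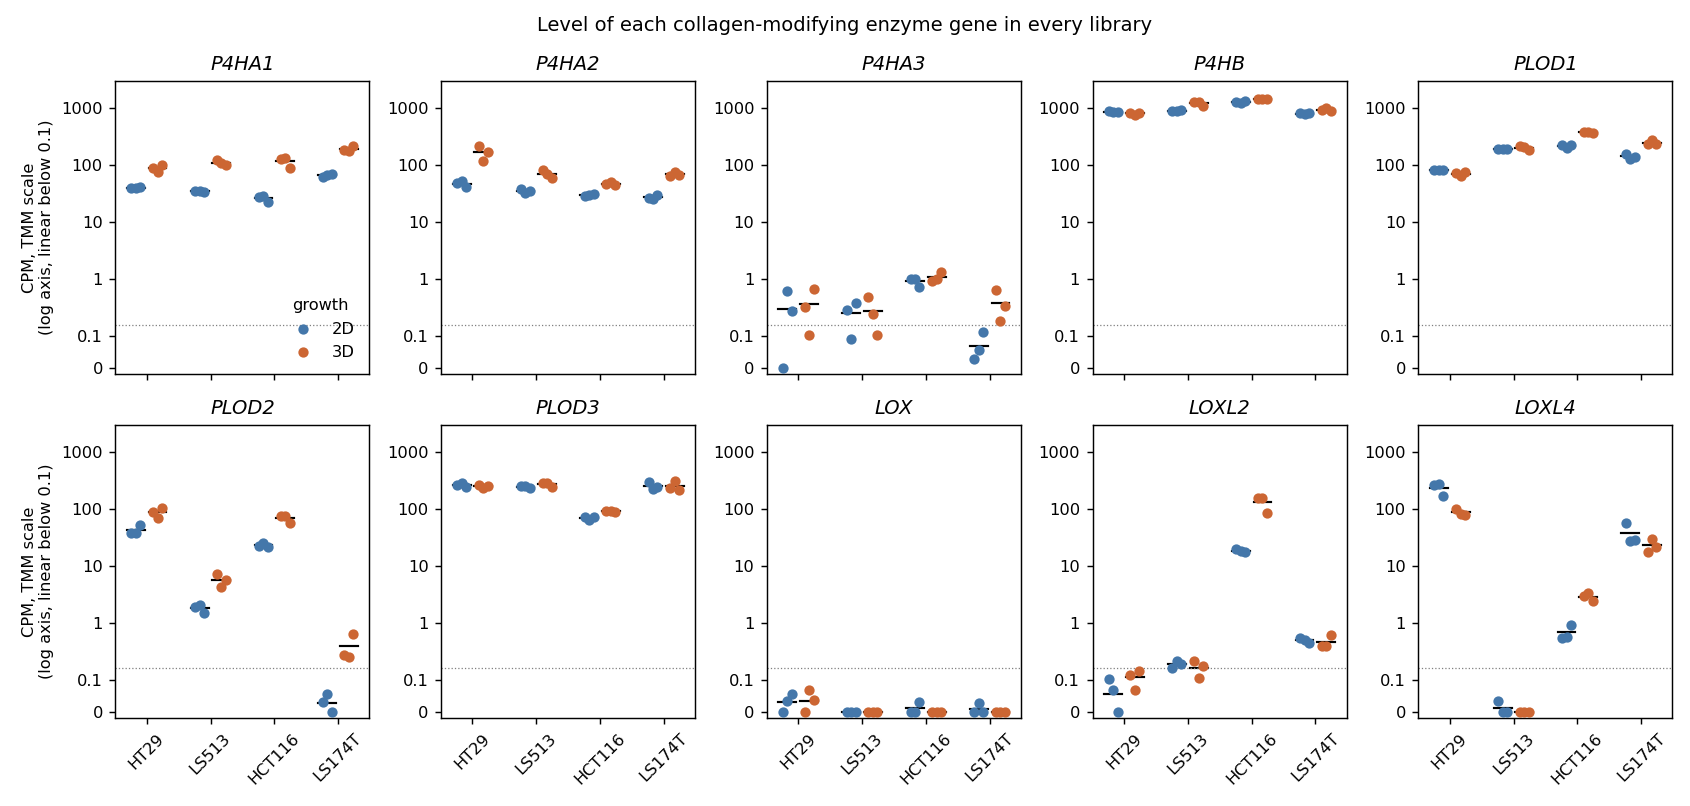
Level of each of the 10 genes in every library, in CPM on the TMM scale (log axis, linear below 0.1), with 1 panel per gene, blue points for 2D, orange points for 3D and a bar at the mean of the 3 libraries. The dotted line is the highest floor of 3 counts (0.160 CPM). P4HB lies between 766 and 1477 CPM in every library, PLOD2, LOXL2 and LOXL4 differ by orders of magnitude between lines, and LOX lies under the floor throughout.

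**Figure D2:**
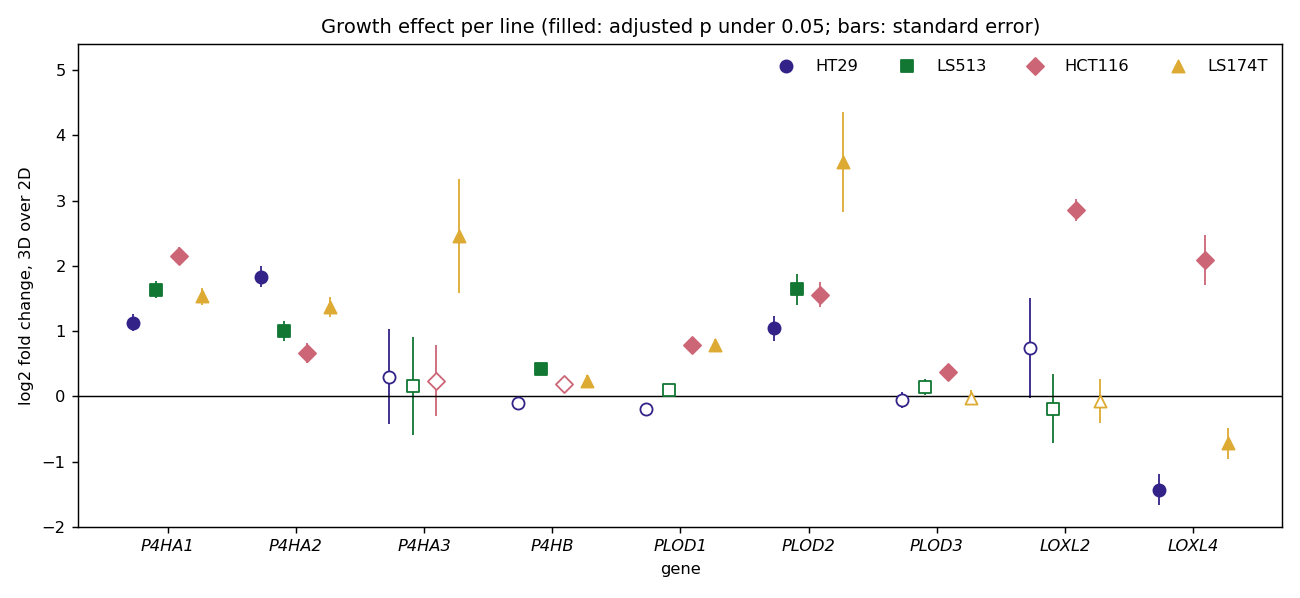
Log2 fold change of 3D over 2D for the 9 genes tested, by cell line (colour and shape), with bars for 1 standard error and filled symbols for an adjusted p under 0.05. LOXL4 in LS513, with 1 count in 6 libraries, is not drawn. P4HA1, P4HA2 and PLOD2 lie above 0 in all 4 lines, LOXL2 rises in HCT116 by 2.85, and LOXL4 lies below 0 in HT29 and LS174T and above it in HCT116.

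P4HA1 (ENSG00000122884), the main alpha subunit of prolyl 4-hydroxylase, lies at chr10:73007217-73096974 on the minus strand (GRCh38, GENCODE 29). In HT29 its level was 39.9, 39.7 and 42.0 CPM in the 2D libraries and 88.6, 75.4 and 103 CPM in the 3D libraries. In LS513 it was 36.0, 35.5 and 34.5 CPM in 2D and 122, 108 and 99.3 CPM in 3D. Every 3D library thus lay above every 2D library of its line. In HCT116 the levels were 28.0, 28.9 and 22.9 CPM in 2D and 131, 132 and 90.3 CPM in 3D, and replicate 3 was the lowest of its group in both. In LS174T, the line with the highest P4HA1, they were 63.2, 68.1 and 70.3 CPM in 2D and 187, 179 and 216 CPM in 3D. The groups did not overlap in HCT116 or LS174T either.

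The rise of P4HA1 was 2.19-fold in HT29 (log2 1.13, SE 0.13, adjusted p = 7.8e-07), 3.10-fold in LS513 (1.63, SE 0.13, adjusted p = 7.3e-09), 4.43-fold in HCT116 (2.15, SE 0.14, adjusted p = 9.9e-11) and 2.88-fold in LS174T (1.53, SE 0.13, adjusted p = 2.7e-08). P4HA1 kept its call in each line when any 1 library was left out. Its growth effect differed between the lines (interaction, adjusted p = 0.003), one of 6 genes of the set with such a call, beside 17.1% of all genes tested. Of the 6 pairs of lines, the growth effect of P4HA1 differed between HT29 and HCT116, by 1.01 on the log2 scale (adjusted p = 0.00074). In 2D the order of its level was LS174T, HT29, LS513 and HCT116, and the neighbours HT29 and LS513 did not differ beyond their spread (adjusted p = 0.21). In 3D the order was LS174T, HCT116, LS513 and HT29, with no difference called between HCT116 and LS513 (adjusted p = 0.49). The step from LS513 to HT29 had an adjusted p of 0.045, which was 0.1 with the size factors of DESeq2 and 0.052 with all genes that had a count.

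P4HA2 (ENSG00000072682, chr5:132191838-132295315, minus strand) encodes the alternative alpha subunit. In HT29 its level was 49.4, 52.9 and 40.8 CPM in 2D and 216, 118 and 174 CPM in 3D. In LS513 it was 39.0, 32.8 and 35.2 CPM in 2D and 82.5, 70.4 and 60.5 CPM in 3D. The HT29 3D libraries were the highest of all 24 and also the most spread. In HCT116 P4HA2 was at 29.2, 30.0 and 31.2 CPM in 2D and 46.4, 50.0 and 45.9 CPM in 3D. In LS174T it was at 26.4, 25.6 and 29.8 CPM in 2D and 65.7, 76.6 and 68.8 CPM in 3D. In no line did the growth conditions overlap.

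P4HA2 rose 3.54-fold in HT29 (log2 1.83, SE 0.16, adjusted p = 1e-08) and 2.58-fold in LS174T (1.37, SE 0.15, adjusted p = 1.7e-06). The rise was 1.99-fold in LS513 (1.00, SE 0.15, adjusted p = 4.8e-05) and 1.57-fold in HCT116 (0.66, SE 0.15, adjusted p = 0.0026). The lines with the smallest and the largest rise were thus HCT116 and HT29, the reverse of P4HA1. The growth effect differed between lines (interaction, adjusted p = 0.0021), and it was larger in HT29 than in HCT116 by 1.17 (adjusted p = 0.0008) and than in LS513 by 0.83 on the log2 scale (adjusted p = 0.012). In 3D, P4HA2 was higher in HT29 than in each other line by 1.25 to 1.84 on the log2 scale, and LS513 and LS174T did not differ beyond their spread (adjusted p = 0.96). P4HA2 shares 548 of its 8502 exonic bases with the antisense gene P4HA2-AS1, which had 47 counts in all libraries.

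The balance between the alpha subunits was read as the share of P4HA2 in the counts per exonic length of P4HA1, P4HA2 and P4HA3. The share depends on that length, which is 8502 bases for P4HA2 and 3093 for P4HA1. By counts alone P4HA2 exceeded P4HA1 in HT29, with 3721 against 3084 in 2D and 15359 against 7948 in 3D. It also did so in 2D, but not in 3D, in LS513 and HCT116, and in neither in LS174T. In HT29 the share was 31.0%, 32.4% and 26.0% in 2D and 46.9%, 36.2% and 38.0% in 3D. In HCT116 it was 26.9%, 26.9% and 32.6% in 2D and 11.4%, 12.0% and 15.5% in 3D. The share of P4HA2 thus lay higher in 3D in HT29 and lower in 3D in HCT116, with no overlap. In LS513 it went from 26.7% ± 1.5 (SD, n = 3) to 19.0% ± 0.806, again without overlap, and in LS174T from 12.9% ± 0.714 to 11.7% ± 1.57, with overlap. The two-sided exact permutation p was 0.1 in HT29, LS513 and HCT116, the smallest that 3 against 3 libraries allow, and 0.4 in LS174T.

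P4HA3 (ENSG00000149380, chr11:74235801-74311657, minus strand), the third alpha subunit, was near the floor, with 0 to 40 counts per library. HCT116 had the highest levels, 1.03, 1.01 and 0.738 CPM in 2D and 0.931, 1.01 and 1.34 CPM in 3D, and these overlapped. Between growth conditions P4HA3 also overlapped in HT29 and LS513. In LS174T it had 1, 2 and 4 counts in 2D and 21, 5 and 11 counts in 3D (log2 2.46, SE 0.87, adjusted p = 0.046), and this call was at the threshold. Without 1 LS174T library it was lost in 4 cases: replicate 1, 2 or 3 in 2D (adjusted p = 0.14, 0.12 and 0.068) or replicate 1 in 3D (0.19). It was also lost, with an adjusted p of 0.05 to 0.055, without any 1 of 9 libraries of the other lines: HT29 2D replicate 3 and 3D replicate 1, LS513 2D replicates 1 and 3 and 3D replicate 2, and HCT116 replicates 1 and 2 in 2D and in 3D. PPME1 on the opposite strand shares 166 exonic bases with P4HA3 and had 71145 counts, so P4HA3 values rest on how reads were assigned to strands.

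P4HB (ENSG00000185624, chr17:81843159-81860694, minus strand), the beta subunit, was the most abundant gene of the set per exonic length in every group. Its level in LS513 was 901, 881 and 947 CPM in 2D and 1265, 1286 and 1099 CPM in 3D. In HCT116 it was 1263, 1244 and 1344 CPM in 2D and 1477, 1447 and 1463 CPM in 3D. LS513 and HCT116 thus gave separate groups, with small steps. In LS174T the levels were 824, 782 and 810.3 CPM in 2D and 924, 1030.0 and 890.5 CPM in 3D. In HT29 they were 881, 873 and 863 CPM in 2D and 840.1, 766 and 829.7 CPM in 3D, so every 3D library was below the 2D libraries.

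P4HB rose 1.34-fold in LS513 (log2 0.42, SE 0.08, adjusted p = 0.00038) and 1.18-fold in LS174T (0.24, SE 0.08, adjusted p = 0.033). The call in LS174T was lost without replicate 1, 2 or 3 in 2D (adjusted p = 0.063, 0.11 and 0.082) or replicate 1 or 2 in 3D (0.05 and 0.15). The difference was 0.19 in HCT116 (SE 0.08, adjusted p = 0.073, and 0.02 by DESeq2) and -0.10 in HT29 (SE 0.08, adjusted p = 0.31). The growth effect on P4HB differed between lines (interaction, adjusted p = 0.01), but not with all genes that had a count in the test (0.17). This call was also lost without HT29 2D replicate 1 or 2 (0.065 and 0.05), HT29 3D replicate 3 (0.065) or LS513 3D replicate 1 or 2 (0.062 and 0.059). HCT116 had the highest P4HB in 2D and in 3D, by 0.50 to 0.67 and by 0.27 to 0.85 on the log2 scale, and the smallest of these, over LS513 in 3D, was not called with all genes that had a count (adjusted p = 0.17). In 2D the other 3 lines did not differ beyond their spread (adjusted p of 0.058 to 0.53). P4HB shares 529 of its exonic bases with an antisense gene that had 1339 counts.

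Alpha subunits are known to need the beta subunit to stay soluble, and their mRNAs were set against each other within each library. For every 100 counts per length of P4HB, the alpha subunit genes together had 11.3, 11.7 and 11.3 in HT29 2D libraries and 34.2, 26.5 and 34.4 in HT29 3D libraries. In HCT116, where the ratio was lowest, they had 5.35, 5.59 and 4.44 in 2D and 17.2, 17.9 and 12.7 in 3D. The ratio was higher in every 3D library than in every 2D library of its line. In LS513 it was 9.16 ± 0.497 (SD, n = 3) in 2D and 19.1 ± 1.42 in 3D, and in LS174T 16.4 ± 1.12 and 40.0 ± 6.05. The two-sided exact permutation p was 0.1 in each line, the smallest possible. This ratio was added after the data had been seen, and like the share of P4HA2 its size depends on the exonic lengths.

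**Figure D3:**
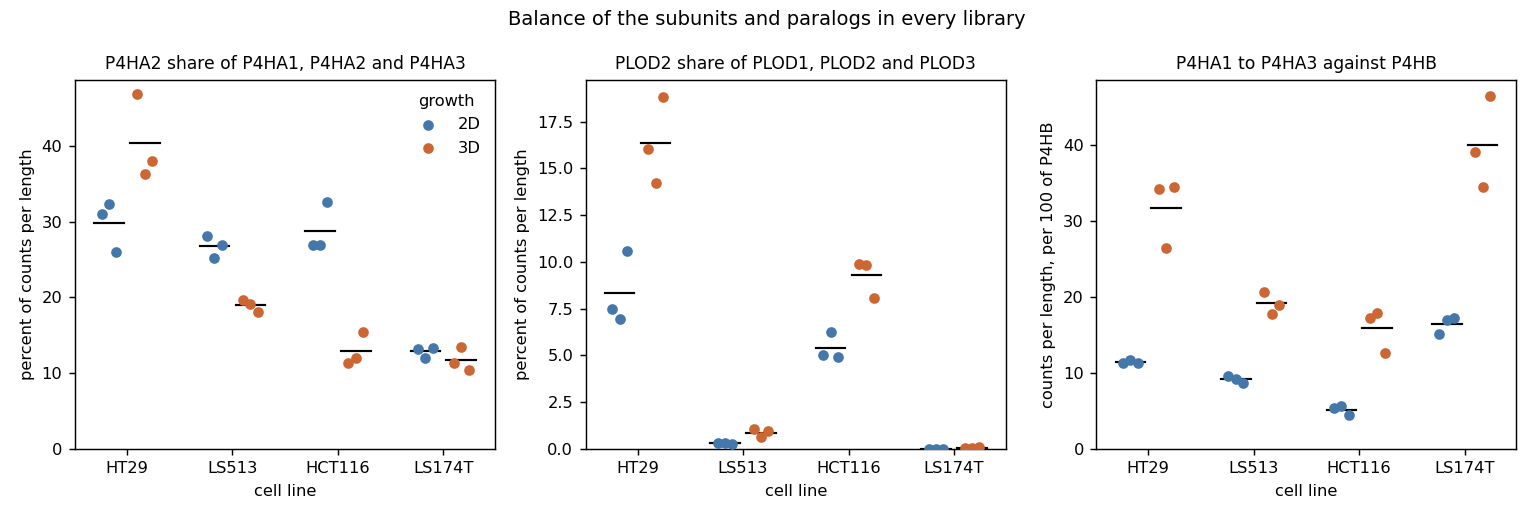
Balance of related genes in every library of the 4 lines, as the P4HA2 share of the 3 alpha subunit genes (percent of counts per length, left), the PLOD2 share of the 3 lysyl hydroxylase genes (middle) and the sum of the alpha subunit genes per 100 of P4HB (right), with blue points for 2D, orange points for 3D and a bar at the mean of 3 libraries. The P4HA2 share is higher in 3D in HT29 and lower in LS513 and HCT116, and alpha subunits per P4HB are higher in 3D in all 4 lines.

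PLOD1 (ENSG00000083444, chr1:11934205-11975538, plus strand) encodes a lysyl hydroxylase of the triple helix. It was raised in 3D in HCT116 and LS174T, the lines described as microsatellite instable. In HCT116 its level was 228, 200.2 and 224 CPM in 2D and 385, 383 and 362 CPM in 3D. In LS174T it was 161, 129 and 140.3 CPM in 2D and 234, 277 and 232 CPM in 3D. In both lines the growth conditions were far apart compared with the spread within them. In LS513 PLOD1 was at 189, 192 and 190.4 CPM in 2D and 215, 207 and 187 CPM in 3D, which overlapped. HT29 had the lowest PLOD1, at 81.0, 82.7 and 82.3 CPM in 2D and 74.0, 64.5 and 76.5 CPM in 3D, lower in every 3D library.

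The rise of PLOD1 was 1.73-fold in HCT116 (log2 0.79, SE 0.09, adjusted p = 8.7e-07) and 1.73-fold in LS174T (0.79, SE 0.09, adjusted p = 2e-06). The difference was 0.09 in LS513 (SE 0.09, adjusted p = 0.52) and -0.19 in HT29 (SE 0.09, adjusted p = 0.095). PLOD1 had the smallest adjusted p of the set for a growth effect that differs between lines (4.1e-06). Each of the 4 pairs of a microsatellite instable and a stable line differed, by 0.70 to 0.99 on the log2 scale (adjusted p of 1.3e-05 to 0.0016), and neither pair within these classes did (adjusted p of 0.17 and 1). With 2 lines in each class, the class cannot be told apart from the single lines. In 2D, PLOD1 was lowest in HT29, by 0.81 to 1.41 on the log2 scale, and LS513 and HCT116 did not differ beyond their spread (adjusted p = 0.069, and 0.04 with the size factors of DESeq2).

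PLOD2 (ENSG00000152952, chr3:146069440-146163653, minus strand) encodes the lysyl hydroxylase of the telopeptides, the ends of the collagen molecule where cross-links start. Its level was highest in HT29, and LS174T had hardly any counts of it. In HT29 it was 38.3, 37.3 and 51.9 CPM in 2D and 88.3, 68.1 and 105 CPM in 3D. In HCT116 it was 22.6, 24.9 and 21.6 CPM in 2D and 74.7, 73.7 and 56.0 CPM in 3D. The 3D libraries were above the 2D libraries in both. In LS513 PLOD2 was at 1.93, 2.05 and 1.49 CPM in 2D and 7.22, 4.26 and 5.65 CPM in 3D, again apart. In LS174T it had 1, 2 and 0 counts in 2D and 9, 7 and 21 counts in 3D.

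PLOD2 rose 2.05-fold in HT29 (log2 1.04, SE 0.19, adjusted p = 0.00015), 3.12-fold in LS513 (1.64, SE 0.24, adjusted p = 2.4e-05) and 2.96-fold in HCT116 (1.56, SE 0.19, adjusted p = 2.5e-06). In LS174T the 37 counts in 3D against 3 in 2D gave a ratio of 13.6 after library size, with a 95% interval of 4.32 to 69.1 that covers counting error only, and the edgeR test gave an adjusted p of 0.0018. Its call held in each line when any 1 library was left out. A difference in the growth effect between lines did not pass the test (interaction, adjusted p = 0.076, and 0.0016 with all genes that had a count and 0.014 by DESeq2). In 2D each step in the order HT29, HCT116, LS513 and LS174T was called, and in 3D HT29 and HCT116 did not differ beyond their spread (adjusted p = 0.094, and 0.0033 with all genes that had a count).

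Within the lysyl hydroxylase genes, the share of PLOD2 in the counts per length was 7.46%, 6.92% and 10.6% in HT29 2D libraries and 16.0%, 14.2% and 18.8% in HT29 3D libraries. In HCT116 it was 5.04%, 6.23% and 4.88% in 2D and 9.90%, 9.85% and 8.07% in 3D. PLOD2 thus took a larger share in 3D, with no overlap, and PLOD1 and PLOD3 still made up most of the counts. In LS513 the share was 0.301% ± 0.0412 (SD, n = 3) and 0.866% ± 0.213, and in LS174T it was under 0.104% in every library. The two-sided exact permutation p was 0.1 in each line.

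PLOD3 (ENSG00000106397, chr7:101205977-101218420, minus strand) encodes the lysyl hydroxylase that also carries glycosyltransferase activity. Its level in HT29, LS513 and LS174T was between 213 and 310.0 CPM in all 18 libraries, and the growth conditions overlapped in each of these lines. In HCT116 it was lower, 73.0, 64.4 and 73.1 CPM in 2D and 93.5, 91.7 and 86.8 CPM in 3D. The rise there was 1.29-fold (log2 0.37, SE 0.12, adjusted p = 0.02), and it was lost without replicate 2 of HCT116 in 2D (adjusted p = 0.1) or replicates 1 or 2 in 3D (0.081 and 0.072). The growth effect was not shown to differ between lines (interaction, adjusted p = 0.19, and 0.031 without LS174T 3D replicate 2). In 2D, HCT116 was below the other lines by 1.79 to 1.90 on the log2 scale, and those 3 did not differ beyond their spread (adjusted p of 0.43 to 0.77). PLOD3 shares 429 of its 5671 exonic bases with ZNHIT1 on the opposite strand, which had 64141 counts.

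LOXL2 (ENSG00000134013, chr8:23297189-23425328, minus strand), a lysyl oxidase-like enzyme that cross-links collagen IV, was well above the floor in HCT116 alone. Its level there was 19.6, 18.1 and 17.8 CPM in 2D and 156, 156 and 86.2 CPM in 3D. Replicate 3 in 3D was lower than the other two and still far above the 2D libraries. The rise was 7.19-fold (log2 2.85, SE 0.17, adjusted p = 5.1e-11), the largest of the set among genes above the floor in every library of both groups. The summed fibroblast markers overlapped there, at 15.9 to 21.0 CPM in 2D and 15.3 to 28.9 CPM in 3D. COL1A2, DCN, LUM, THY1 and PDGFRA were at 0, and COL1A1, PDGFRB and ACTA2 were above the floor in all libraries. COL1A1 was at 14.06 CPM on average in 2D and 16.05 in 3D, and ACTA2 at 4.22 and 5.97. LOXL2 kept this call when any 1 library was left out, with a log2 fold change between 2.69 and 3.05.

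In the other lines LOXL2 had at most 20 counts in a library. In LS174T it was at 0.538, 0.512 and 0.444 CPM in 2D and 0.399, 0.401 and 0.614 CPM in 3D (log2 -0.07, SE 0.34, adjusted p = 0.93). LS513 libraries had 3 to 7 counts and HT29 libraries 0 to 4, with no call in either line (adjusted p = 0.87 and 0.47). The effect of growth on LOXL2 differed between lines (interaction, adjusted p = 1.1e-05): it was larger in HCT116 than in LS174T by 2.92 (adjusted p = 2.9e-05) and than in LS513 by 3.04 on the log2 scale (adjusted p = 0.0024). Against HT29, with its few counts, the difference of 2.11 did not pass (adjusted p = 0.2). LOXL2 shares 120 exonic bases with ENTPD4 on the same strand, whose reads cannot be told apart there.

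LOXL4 (ENSG00000138131, chr10:98247690-98268250, minus strand), another lysyl oxidase-like enzyme, moved in opposite directions. In HT29 its level was 262, 269.6 and 169.6 CPM in 2D and 100.2, 81.8 and 78.2 CPM in 3D, so all 3D libraries were lower. In HCT116, where it was low, it was 0.544, 0.575 and 0.930 CPM in 2D and 2.96, 3.30 and 2.41 CPM in 3D, all higher. In LS174T it was 57.0, 27.3 and 28.4 CPM in 2D and 17.4, 29.4 and 21.7 CPM in 3D, and these overlapped. LS513 had 1 count in 6 libraries.

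LOXL4 fell by 1.43 on the log2 scale in HT29 (2.70-fold lower, SE 0.24, adjusted p = 8.5e-05) and rose by 2.09 in HCT116 (4.24-fold, SE 0.38, adjusted p = 0.00038). In LS174T it fell by 0.72 (SE 0.24, adjusted p = 0.038), and this call rested on few libraries: without replicate 1 in 2D the adjusted p was 0.37, without replicate 1 in 3D it was 0.15, without replicate 3 in 3D it was 0.078, and without replicate 1 of LS513 in 2D it was 0.051. The effect on LOXL4 differed between lines (interaction, adjusted p = 7.7e-05), by 3.52 on the log2 scale between HCT116 and HT29 (adjusted p = 1.8e-05) and by 2.80 between HCT116 and LS174T (adjusted p = 0.0005). In 2D and 3D the order of the lines was HT29, LS174T, HCT116 and LS513, and each step was called. LOXL4 was the second most abundant gene of the set per exonic length in HT29 grown in 2D, at 64.0 CPM per kilobase, and the fourth in 3D, at 23.7.

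LOX (ENSG00000113083, chr5:122063195-122078360, minus strand) stayed under the floor in every library, HCT116 included. It had 2 counts in the HT29 2D libraries and 3 in the HT29 3D libraries, and at most 1 in any library of the other lines. A change of LOX with growth was not detectable at this depth.

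The lines also differed from each other in these genes, as in most genes tested. In 2D the number of the 9 genes called between 2 lines was 4 for HT29 and LS513 (60.6% of all genes tested), 9 for HT29 and HCT116 (68.8%), 6 for HT29 and LS174T (64.6%), 7 for LS513 and HCT116 (68.3%), 6 for LS513 and LS174T (57.6%) and 8 for HCT116 and LS174T (68.3%). In 3D the numbers were 6 (61.9%), 8 (68.5%), 7 (65.5%), 8 (68.5%), 6 (60.9%) and 9 (67.2%) for the same pairs. For the growth effect itself they were 2 (12.1%), 4 (7.76%), 1 (6.65%), 2 (4.34%), 1 (3.62%) and 2 (4.75%). PLOD1 was the gene behind 4 of these 12 calls, P4HA2, LOXL2 and LOXL4 behind 2 each, and P4HA1 and P4HB behind 1 each.

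Other genes of collagen synthesis were called in both directions. Of 14 other genes listed as collagen-modifying enzymes and chaperones, 1 was higher (21.1% of all genes tested) and 5 were lower (19.6%) in HT29. In the same order the numbers were 2 (13.7%) and 3 (9.90%) in LS513, 3 (16.8%) and 2 (12.3%) in HCT116, and 2 (13.1%) and 0 (9.15%) in LS174T. The median log2 fold change of the list was between -0.11 and 0.00. FKBP14, a prolyl isomerase of the endoplasmic reticulum, fell by 0.71 in HT29 and by 0.54 in HCT116 on the log2 scale (adjusted p = 9.8e-05 and 0.0013). LOXL3, another lysyl oxidase-like gene, fell by 0.58 in HT29 and by 0.74 in LS513 (adjusted p = 0.021 and 0.0017). P4HTM, a transmembrane prolyl 4-hydroxylase that was listed with them but is not known as a collagen enzyme, rose by 0.53 in HCT116 and by 0.46 in LS174T (adjusted p = 0.0053 and 0.019).

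Collagen chains, the substrates, were called higher in 7 of 19 genes tested in HCT116, beside 16.8% of all genes tested. In the other lines 1 or 2 were higher, beside 13.1% to 21.1%, and 0 to 2 were lower in each line, beside 9.15% to 19.6%. COL17A1, a hemidesmosome collagen, rose in HCT116 from 1.90 ± 0.533 CPM (SD, n = 3) to 6.66 ± 2.20 CPM (log2 1.82, adjusted p = 2.4e-05). HCT116 still had the lowest level: group means of the other lines ran from 124.2 CPM (LS174T, 2D) to 504.5 CPM (LS513, 3D). COL9A3, a chain of collagen IX, fell by 0.45 in HT29 and rose by 0.78 in HCT116 and by 0.98 in LS174T (adjusted p = 0.016, 0.00062 and 0.0018). COL9A2 was listed at 0 in HT29 2D libraries and was at 0.154 CPM or less on average there in 3D. Of 7 procollagen processing genes tested, at most 2 were higher and at most 1 was lower in a line, beside the same shares of all genes. BMP1, the procollagen C-proteinase, rose by 0.48 in HCT116 and fell by 0.30 in HT29 (adjusted p = 0.0011 and 0.024).

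P4HB is also a protein disulfide isomerase, and 16 other isomerases, oxidases and chaperones of the endoplasmic reticulum were counted beside it. In HT29 9 of them were lower (19.6% of all genes tested) and 1 was higher (21.1%). In the same order the numbers were 2 (9.90%) and 4 (13.7%) in LS513, 0 (12.3%) and 4 (16.8%) in HCT116, and 2 (9.15%) and 2 (13.1%) in LS174T. PDIA5, an isomerase, rose in all 4 lines by 0.22 to 0.55 on the log2 scale (adjusted p of 8.1e-06 to 0.038). ERO1A, the oxidase that recharges P4HB, rose by 0.88 in LS513, by 1.23 in HCT116 and by 0.49 in LS174T (adjusted p = 0.00046, 1.1e-05 and 0.037).

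Genes known to be induced by hypoxia were mostly higher in 3D. Of 20 such genes, none of them in the set, all 20 were higher in LS174T, where 13.1% of all genes tested were higher. In HCT116 18 were higher (16.8%), in LS513 18 (13.7%) and in HT29 14 (21.1%). The median log2 fold changes were 1.48, 1.34, 1.18 and 0.69 in this order of lines. The list was chosen with earlier results of these data known. NDRG1, a stress response gene, rose by 3.29 to 4.36 on the log2 scale in the 4 lines, and PDK1, which limits the entry of pyruvate into mitochondria, rose by 1.36 to 1.93. HT29 had the smallest median of this list and the smallest rise of P4HA1 and PLOD2, but the largest rise of P4HA2. These ranks were not all called in edgeR: for P4HA1, HT29 did not differ from LS513 or LS174T (adjusted p = 0.083 and 0.23). For PLOD2 it differed from no line (adjusted p of 0.065 to 0.28), and for P4HA2 not from LS174T (0.24). The part of hypoxia in the levels of the 10 genes was not tested.

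Likeness was measured as Pearson's r over the 24 libraries of log2 CPM after the mean of each line was subtracted, so the points share their growth condition. P4HA1 was most like KDM3A (r = 0.984), KDM4B (0.982) and PDK1 (0.975). PLOD2 was most like EGLN3 (0.950), KDM3A (0.943) and INSIG2 (0.940), and P4HA2 most like EFNA1 (0.970), DAZAP2 (0.951) and NPC2 (0.950). KDM3A, PDK1, EGLN3 and INSIG2 are among the 20 hypoxia-inducible genes. With the median of that list, r was 0.97 for P4HA1, 0.95 for PLOD2, 0.86 for P4HA2, 0.76 for PLOD1, 0.75 for P4HB, 0.52 for LOXL2, 0.41 for P4HA3 and PLOD3 and 0.08 for LOXL4. Once the mean of each group was subtracted instead, which leaves the spread between replicates, r was 0.62 for P4HA1, 0.57 for LOXL2, 0.50 for P4HA2, 0.47 for PLOD2, 0.39 for PLOD1, 0.34 for LOXL4 and 0.30 or less for P4HB, P4HA3 and PLOD3. With the neighbours named above, r was then 0.37 to 0.72 for P4HA1, 0.51 to 0.75 for PLOD2 and 0.68 to 0.75 for P4HA2.

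The other genes had other neighbours. P4HB was most like CAPNS1 (0.938), CARS (0.935) and AP2M1 (0.934), PLOD1 most like GOLT1A (0.914), RTL8C (0.906) and DDIT4L (0.884), and PLOD3 most like FIBP (0.858), IRF3 (0.848) and DRAP1 (0.847). LOXL2 was most like SP110 (0.928), PLSCR1 (0.925) and DDX58 (0.914), which are known interferon-induced genes, and LOXL4 most like IL18 (0.913), SLC12A4 (0.891) and PDLIM3 (0.886). For P4HA3, with its few counts, the highest r was 0.839, with AC020900.1 and AL512656.1, followed by AC093512.1 (0.837). With group means subtracted, r with these neighbours fell to 0.46, 0.43 and 0.23 for LOXL2, which was well above the floor in HCT116 alone. It was then 0.62, 0.34 and -0.02 for PLOD1 and 0.61 to 0.67 for LOXL4. For P4HB it was 0.72 to 0.85, and for PLOD3 and P4HA3 0.81 to 0.84. Within the set, r was 0.93 for P4HA1 and PLOD2, 0.82 for P4HA1 and P4HA2, and 0.81 for P4HA2 and PLOD2, and with group means subtracted it was 0.58, 0.34 and 0.04. PLOD1 and PLOD3 had r = 0.59, and 0.85 with group means subtracted.

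In HCT116 and HT29 the same 3D library was lowest for the hypoxia-inducible list and for several genes of the set, which was noticed after their values were seen. Replicate 3 of HCT116 in 3D had the lowest median of the hypoxia-inducible list in its group (0.41 above the mean of the line on the log2 scale, against 0.78 and 0.75) and also the lowest P4HA1, PLOD2 and LOXL2. That library was lowest for P4HA2, PLOD1, PLOD3 and LOXL4 too, but not for P4HA3 and P4HB. Replicate 3 of HT29 in 3D had the lowest median in its group (0.15, against 0.55 and 0.35) and the lowest P4HA1, P4HA2 and PLOD2. That library was also lowest for P4HA3, P4HB, PLOD1, PLOD3 and LOXL2, but not for LOXL4. Its low values were thus not particular to the genes that follow the list. The other lines did not show this throughout: in LS513 3D replicate 3 was lowest for the list, P4HA1 and P4HA2 but replicate 2 for PLOD2, and in LS174T 3D replicate 1 was lowest for the list and P4HA2 but replicate 2 for P4HA1 and PLOD2.

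**Figure D4:**
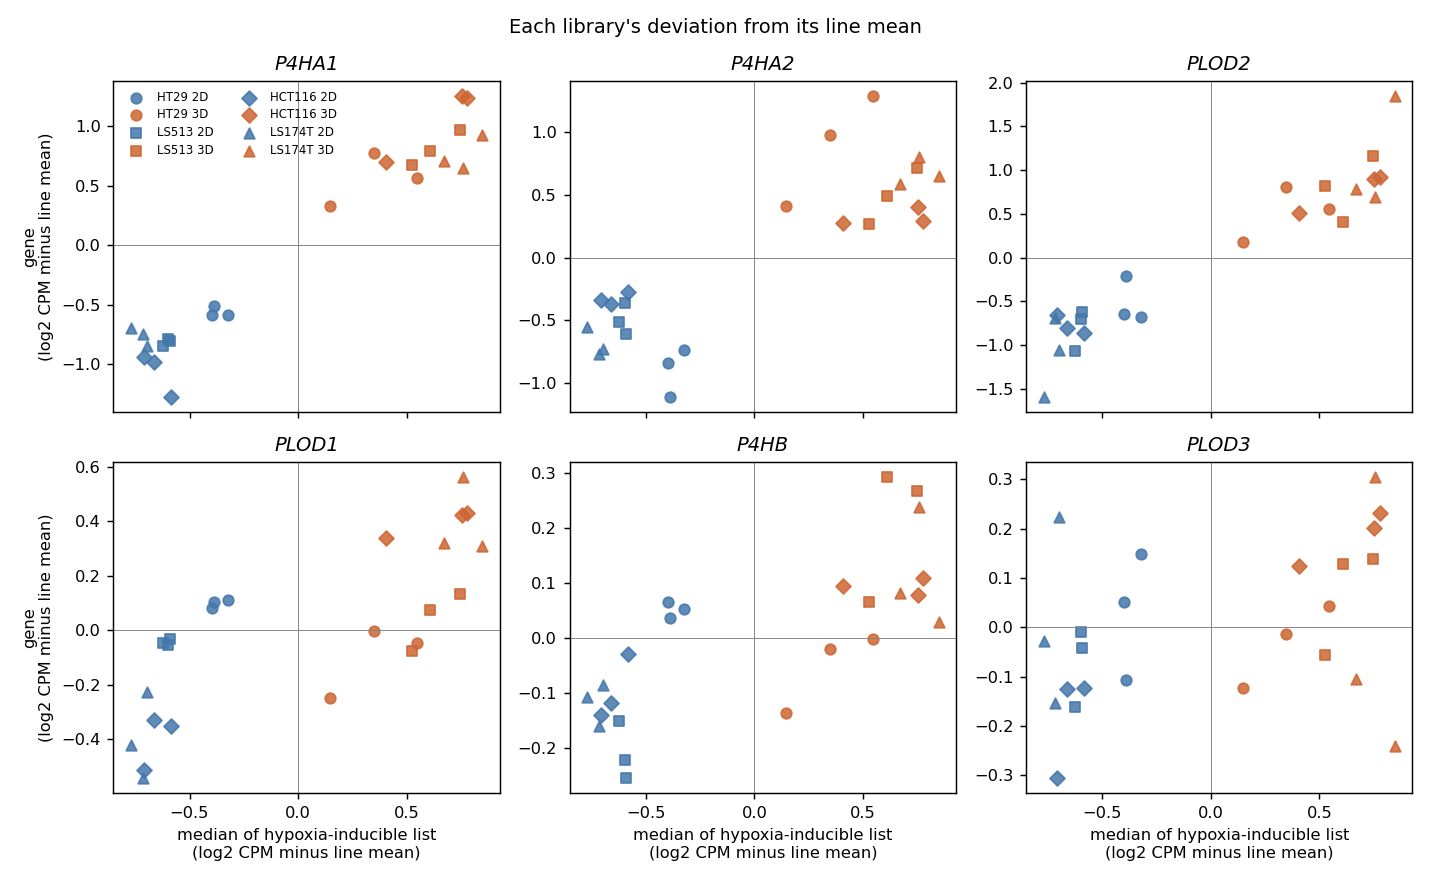
Deviation of each library from the mean of its line (log2 CPM) for P4HA1, P4HA2, PLOD2, PLOD1, P4HB and PLOD3 (vertical axes, each with its own range) against the deviation of the median of 20 hypoxia-inducible genes (horizontal axis), with 1 point per library, blue for 2D, orange for 3D and a shape for each line. Over 24 libraries, which share their growth condition, r was 0.97 for P4HA1, 0.95 for PLOD2 and 0.41 for PLOD3, the lowest of the 6. With group means subtracted it was 0.62, 0.47 and 0.19.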

How the data were processed

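Messenger RNA of 24 libraries was sequenced with a strand-specific kit, in 8 technical replicates each. The authors deposited raw counts per Ensembl gene in 1 table per technical replicate, and 191 of these tables were used. Per their methods, reads were trimmed with Trim Galore 0.4.1, aligned with STAR and counted with HTSeq 0.5.3 against an Ensembl genome, and reads that aligned more than once were left out; the strand option of the counter is not given in the sources used here. The submitters' processing notes name hg19, but 5246 of the gene identifiers lie above ENSG00000274000, a range of the GRCh38 era, so positions and exonic lengths are from GENCODE 29 on GRCh38 (57980 of 58243 identifiers matched). Identifiers were used as given.

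Counts were summed over technical replicates (7 for HT29 3D replicate 4, 1 more was not analysed here), which differed by no more than counting noise (median chi-square per degree of freedom 0.907 to 0.933). Library totals were 18723942 to 34277421, and intervals and floors cover counting error only. Groups come from the labels. In R 4.3.3 with edgeR 4.0.16 (limma 3.58.1), filterByExpr kept 19387 genes, and 1 robust quasi-likelihood model with TMM scaling and a coefficient for each of 8 groups gave all contrasts, adjusted by the Benjamini-Hochberg method over all genes tested. The standard error is the size of the log2 fold change divided by the square root of F. Levels are CPM on the TMM scale, and levels between genes are per kilobase of merged exons. Log2 CPM used a prior count of 2. DESeq2 1.42.0, its size factors, other filters, a replicate block, separate fits per line and leaving out libraries were alternatives. The script was checked on simulated counts.

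The members and lists were chosen with earlier results of these data known, so their counts are descriptions. Named outside the set are, for each list, up to 3 genes with the smallest p for the mean effect of the lines, the 3 genes most like each member, and genes that overlap a member. PCOLCE2, ADAMTS14, BNIP3L and DNAJB9 were named by this rule too. PCOLCE2 rose by 1.05 in LS513 (adjusted p = 0.00062), BNIP3L by 2.05 to 2.32 in the 4 lines and DNAJB9 by 0.91 in LS513 and 0.50 in HCT116 (adjusted p = 0.00066 and 0.043), on the log2 scale in edgeR. ADAMTS14 rose by 1.12 in HCT116 and 1.96 in HT29 and fell by 1.86 in LS513 (adjusted p = 0.0015, 0.034 and 0.0048). In HT29 it was near the floor and its groups overlapped, with means of 0.078 CPM in 2D and 0.266 CPM in 3D. Its mean in LS513 was 0.731 CPM in 2D and 0.199 CPM in 3D.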

Additional observations from a re-analysis of the deposited data

Results flagged for a closer look

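For 6 genes the effect of 3D growth differed between the 4 lines in edgeR's interaction test. The adjusted p was 4.1e-06 for PLOD1, raised in HCT116 and LS174T, and 1.1e-05 for LOXL2, raised in HCT116. It was 7.7e-05 for LOXL4, lower in HT29 and higher in HCT116. It was 0.0021 for P4HA2, with the largest rise in HT29, and 0.003 for P4HA1, with the largest rise in HCT116. For P4HB it was 0.01, with the largest rise in LS513, and this call was lost with other filters or without single libraries.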

How the results depend on the processing

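With the replicate block (line and replicate number), the genes of the set lower in LS174T went from 1 to 0, as they did with the 6 libraries of the line alone and without 1 of 4 libraries named above (range 0 to 1). The block also ended the calls of P4HA3 and P4HB in LS174T (adjusted p = 0.071 and 0.12) and of P4HB for a difference between lines (0.18). With its 6 libraries alone, the genes higher in LS174T went from 6 to 3: P4HB lost its call (0.19), and P4HA3 and PLOD2 had too few counts to be tested. When changes between -0.5 and 1.5 on the log2 scale were not called, 4 genes were higher in HCT116, 3 in LS174T, 2 in LS513 and 1 in HT29. Without division by exonic length, the P4HA2 share differed between 3D and 2D by -10.8 points in LS513 and -23.5 in HCT116 (-7.73 and -15.9 with it), and the PLOD2 share by 0.780 and 5.21 points (0.565 and 3.89). Of 1554 other values under an alternative 38 lost and 10 gained a call, 0 called values changed sign, and 12 values of P4HA3, PLOD3 and LOXL2 that were not called with or without the alternative did. The labels do not say whether 2D and 3D libraries of equal replicate number were set up together. Correlations of their deviations from the group means over 11 such pairs were -0.146 to 0.094. Pairs of unequal number gave -0.229 to 0.221, and these values cannot settle whether libraries were paired. In HT29 the numbers shared between growth conditions are 1 and 3. P4HA1, P4HA2 and PLOD2 kept their calls in each line under every alternative of the filter, scaling, tool, block and libraries in which they were tested. Counts near the floor limit P4HA3 and LOX in all lines, PLOD2 in LS174T, LOXL2 outside HCT116 and LOXL4 in LS513.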
